A study of Mus musculus with 5 samples.

Results

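The genes described here are 8 members of the TALE homeobox family, Meis1, Meis2, Meis3, Pbx2, Pbx3, Pbx4, Pknox1 and Pknox2, taken from a fixed list of names among the 21887 protein-coding genes of the mouse gene table. For each, the H3K27ac peaks within 1 kb of either end of the gene, over its body and in the 100 kb outside it were collected. These were 46 of the 22948 peaks of the list. H3K27ac is the acetylation of lysine 27 of histone H3, found at active promoters and enhancers. It was measured by ChIPmentation, in which Tn5 transposase tags chromatin that an antibody has pulled down. All libraries came from mouse bone marrow cells of the genotype labelled Mll3/4 deleted, sorted as CD45.2+, lineage-negative, Sca1+ and Kit+ and called HSC/MPP in the labels. They comprised 4 H3K27ac libraries and 1 input library, and 1 peak list was deposited for them together. Mll3 and Mll4 are histone methyltransferases that act mainly at enhancers. How and when they were deleted, the age of the mice and whether libraries came from separate animals are not given in the sources used here. No other genotype was analysed here, and no value of a single library was at hand, so no replicate error and no test can stand beside the values that follow.

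TALE proteins carry a homeodomain with a short extension of the loop between its first helices, which lets them bind DNA together with other homeodomain proteins. Pbx proteins pair with Meis or with Pknox (also called Prep) proteins, which brings them into the nucleus, and Pbx and Meis proteins bind DNA with Hox factors. In blood, Meis1 is needed to maintain stem cells and acts with Hoxa9 in leukaemia, and its level falls as progenitors mature.

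H3K27ac differed widely within the family. Meis1 carried a peak of 11.7 kb over its start and 7 further peaks in its body. Pknox1 had a pair of peaks around an end. Pbx2 and Pbx4 each had 1 peak just outside the gene, and Pbx3 had peaks in its body only. Meis2, Meis3 and Pknox2 had none at an end or in the body, and Meis2 had none within 100 kb either. In all, 4 of the 8 genes had a peak at an end, against 36.2% of all protein-coding genes (95% Wilson interval 35.6% to 36.9%, which covers counting error over genes only). A peak over the body was found for 3 of the 8, against 41.3% of all protein-coding genes. A peak over the body or within 100 kb was found for 7 of the 8, against 77% of all. With only 8 genes, these counts are not read as different from the background. What set the members apart from each other was the kind of peak. Where the summit itself had to lie within 1 kb of an end, only Pbx4 and Pknox1 kept a peak at an end, 2 of 8 against 33.3% of all genes, because the summits at Meis1 and Pbx2 lay further off. With the list held to −log10 q of 5 or more, Meis1, Pbx2 and Pknox1 kept an end peak, 3 of 8 against 24% of all genes.

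**Figure D1:**
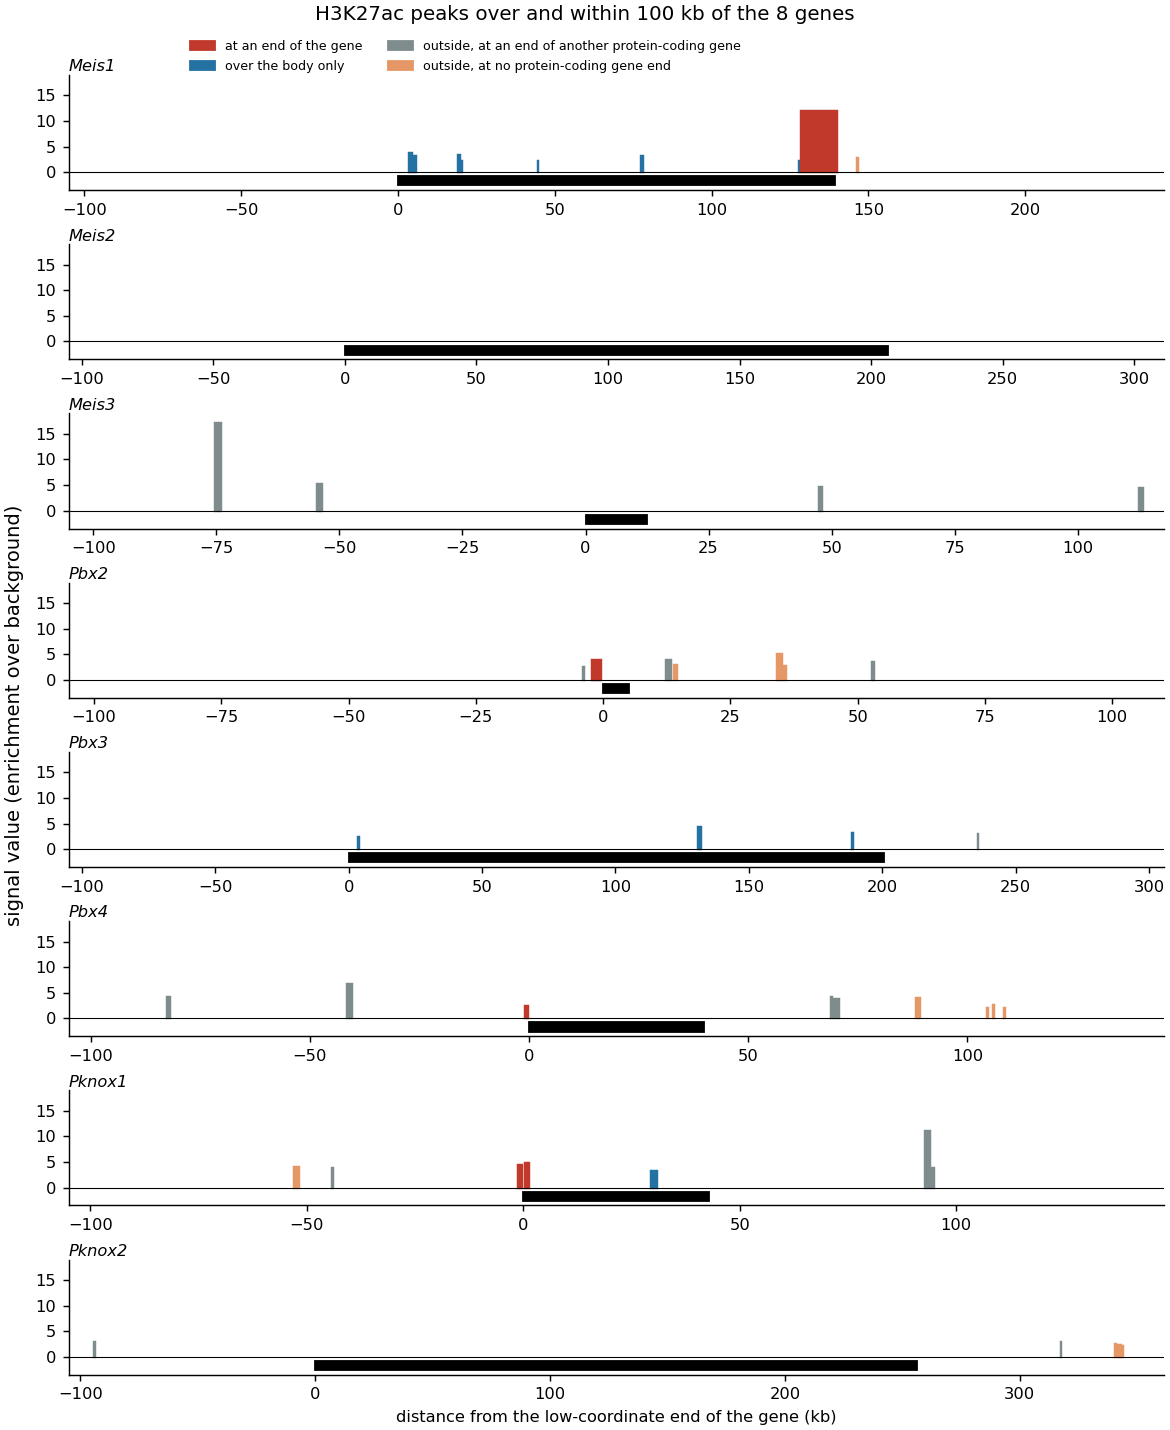
H3K27ac peaks over each of the 8 genes and in the 100 kb outside it, with the distance in kb from the low-coordinate end of the gene on the x axis and the signal value (enrichment over background) on the y axis. Black bars are the genes and coloured bars the peaks, drawn to scale with a thin outline; Meis1 stands out by its 11.7 kb peak, and the tall bars beside Meis3 and Pknox1 lie at ends of other genes.

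The promoter sequences of the 3 Meis genes are shown first, with that of Gm16141, a long non-coding RNA gene on the opposite strand of Meis1, because the wide peak at Meis1 covered the starts of both Meis1 and Gm16141 while no peak reached the start of Meis2 or Meis3. Each runs 5′ to 3′ on the strand of its gene, from 250 bases before the annotated start to 50 bases from it, and comes from RefSeq (GRCm38.p6). Capitals mark matches to the motifs given after them. They are Meis1 at chr11:19018920-19019219 (minus strand), Gm16141 at chr11:19013055-19013354 (plus strand), Meis2 at chr2:116064570-116064869 (minus strand) and Meis3 at chr7:16175145-16175444 (plus strand).
Meis1: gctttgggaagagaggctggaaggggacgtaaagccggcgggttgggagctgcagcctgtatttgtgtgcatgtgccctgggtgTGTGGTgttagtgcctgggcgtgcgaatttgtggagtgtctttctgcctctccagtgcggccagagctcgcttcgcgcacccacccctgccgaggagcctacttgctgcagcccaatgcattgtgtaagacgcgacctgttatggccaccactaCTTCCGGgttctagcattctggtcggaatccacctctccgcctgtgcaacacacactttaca
Gm16141: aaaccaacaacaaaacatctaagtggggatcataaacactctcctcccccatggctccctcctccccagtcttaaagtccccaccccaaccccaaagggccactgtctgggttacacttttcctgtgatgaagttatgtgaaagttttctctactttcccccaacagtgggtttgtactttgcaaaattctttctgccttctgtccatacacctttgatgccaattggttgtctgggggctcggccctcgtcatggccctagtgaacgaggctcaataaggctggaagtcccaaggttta
Meis2: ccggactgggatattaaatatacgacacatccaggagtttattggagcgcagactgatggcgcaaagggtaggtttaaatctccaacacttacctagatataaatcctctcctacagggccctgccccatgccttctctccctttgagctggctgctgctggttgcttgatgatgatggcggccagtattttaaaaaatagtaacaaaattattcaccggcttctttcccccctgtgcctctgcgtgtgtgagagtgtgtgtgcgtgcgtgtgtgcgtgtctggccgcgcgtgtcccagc
Meis3: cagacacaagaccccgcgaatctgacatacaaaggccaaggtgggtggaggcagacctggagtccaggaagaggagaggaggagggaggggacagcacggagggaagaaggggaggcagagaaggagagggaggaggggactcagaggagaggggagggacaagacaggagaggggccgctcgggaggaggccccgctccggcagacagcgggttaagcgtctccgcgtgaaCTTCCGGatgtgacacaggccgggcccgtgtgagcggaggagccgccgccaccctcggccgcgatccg

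The motifs searched on both strands were TGACAG, the core read by Meis and Pknox proteins, and TGATTGA, a core read by Pbx with a partner. The ETS core CCGGAAG and the Runx core TGTGGT were added after the sequences had been seen. Neither TALE motif occurred in the promoters of the 5 members in the table, which were the 3 Meis genes, Pbx2 and Pbx4. Among all 32851 promoters of this length, 19.2% held TGACAG and 2.7% held TGATTGA. The ETS core was found on the reverse strand, so that it reads as CTTCCGG, in Meis1 from position -12 and in Meis3 from position -18, counted from the start base as 0. It occurred in 8.86% of all promoters. The Runx core was found in Meis1 alone of these 5, from position -166, and in 16.8% of all promoters. No match overlapped another. The ETS core was thus shared by a start under a peak and a start without a peak.

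The promoter windows of the 4 members without a peak over them were not poor in CpG. The Meis1 window held 15 CpG, that of Meis2 13 and that of Meis3 21, against a median of 7 over all promoters. The window of Gm16141, under the Meis1 peak, held 3. Pbx2 had the most, 29 CpG in 300 bases at 76% G and C, and Pbx4 had 19, and neither window was itself under a peak.

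Meis1 (chromosome 11, 18880428 to 19019651, 139 kb) had the strongest and the widest end peak of the family. This peak ran from 19008569 to 19020314, 11746 bp, with a signal value of 12.2 (−log10 q 48.5). The signal value is column 7 of the deposited list, read as the authors' enrichment of H3K27ac over background. The peak was 5.55 times as wide as the next widest end peak of a member, at Pbx2, and its signal value was 2.46 times that of the next strongest, at Pknox1. In the whole list 13 peaks were at least this wide, the Meis1 peak among them, and it ranked at 179 of 22948 by signal value. Of the 7929 protein-coding genes with an end peak, 146 had one with at least this signal value and 12 had one at least this wide, Meis1 included.

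The wide peak lay mostly inside the gene. Meis1 is read from high to low coordinates, and its annotated start lay 682 bp inside the high end. The peak reached 1.35 kb upstream of that start and 10.4 kb downstream of it. Its summit lay 4.15 kb downstream of the Meis1 start. The Gm16141 start, inside Meis1 and 5.66 kb downstream of the Meis1 start, was nearer, at 1.52 kb from the summit. ChIP reads carry no strand of transcription, so acetylation from the start of Meis1 and from that of Gm16141 cannot be told apart within this peak.

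The other 7 peaks over Meis1 were narrower and weaker than the wide peak, and 4 of the 7 had a signal value above the median of the list. Their widths ran from 231 to 1037 bp and their signal values from 2.32 to 3.88, against a median of 854 bp and 3.27 in the whole list. In the order of transcription the first followed the wide peak after a gap of 174 bp, with its summit 10.7 kb downstream of the start and a signal value of 2.45. The next lay at 60.9 kb (3.36) and 94.0 kb (2.32). The last 4 fell into 2 pairs near the far end, at 118 kb (2.35) and 119 kb (3.46), and at 133 kb (3.43) and 135 kb (3.88). A q-value above 0.05 was attached to 3 of these 7, namely those with the lowest signal values. Upstream of the gene there was 1 peak, 666 bp wide with a signal value of 2.90, its summit at -7.94 kb from the start.

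Together the 8 peaks over the body covered 15970 bp, or 11.5% of Meis1, and 69.4% of these bases belonged to the wide peak. Among the 2979 protein-coding genes of 0.5 to 2 times its length, 183 (6.14%) had at least 8 peaks over the body, and the median was 1. The number moved with the threshold. It was 5 once q-values above 0.05 were left out, and also 5 after peaks within 1 kb were merged. A −log10 q of at least 5 left 1, the wide peak itself. No other protein-coding gene lay within 100 kb of Meis1. The nearest end of another, at Spred2, was 898 kb from the upstream peak, so none of these 9 peaks lay near an end of another protein-coding gene.

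**Figure D2:**
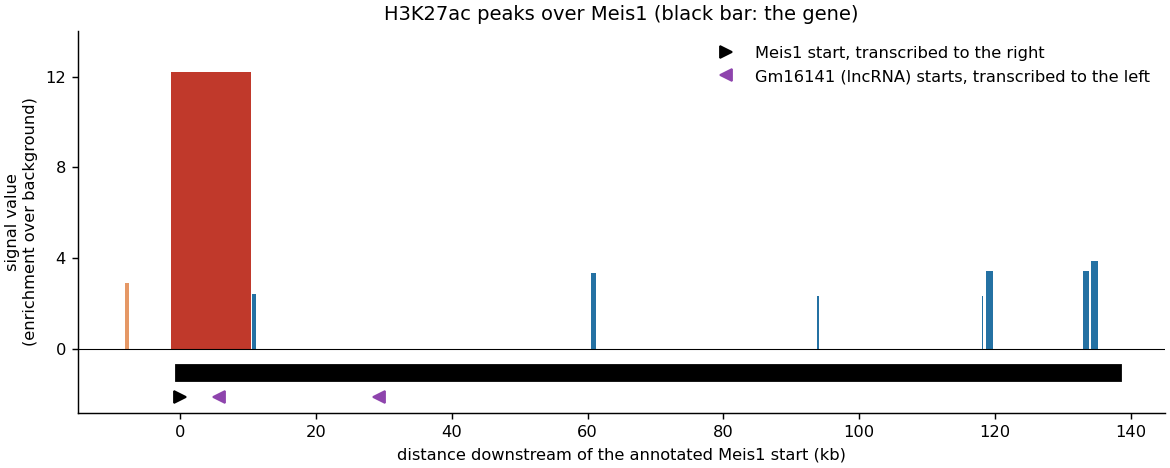
Peaks over Meis1 along the direction of transcription, with the distance downstream of the annotated start in kb on the x axis and the signal value on the y axis; bars are peaks to scale, the black bar is the gene and triangles are annotated starts. The wide peak of 12.2 covers the start of Meis1 and 1 of the Gm16141 starts, and the other peaks over the gene stay at or below 3.88.

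Meis2 (chromosome 2, 115861264 to 116067537, 206 kb), a close paralogue of Meis1 best known from limb and neural development, had no peak at all. The stretch without a peak held the whole gene and 100 kb on either side, 406 kb in all. The nearest peak lay 279 kb from the gene. Such an empty stretch was not rare for a gene of this size. Of the 2003 protein-coding genes of 0.5 to 2 times its length, 373 (18.6%) had no peak over the body or within 100 kb. Since the depth is unknown, the mark cannot be called absent from a gene without a called peak.

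Meis3 (chromosome 7, 16174012 to 16186510, 12.5 kb), which takes part in hindbrain patterning, had no peak at an end or in its body either. All 4 peaks in its flanks lay at an end of another protein-coding gene. The strongest was the peak at Napa, a factor of membrane fusion, at 16098547 to 16100049. It had a signal value of 17.3, the highest among the 46 peaks and rank 15 in the list. The others were at Kptn (5.48), Dhx34 (4.74) and Ccdc9 (4.71). Of the 9 protein-coding genes that reached into the flanks of Meis3, 4 had a peak at an end, against 36.2% of all protein-coding genes. The nearest peak to Meis3 was 34.8 kb away.

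Pknox1 (chromosome 17, 31564722 to 31607693, 43.0 kb), a partner of Pbx proteins that competes with Meis proteins for them, had an end peak on each side of its low end. The outer ran from 31563231 to 31564398 (1168 bp, signal value 4.68) and the inner from 31564948 to 31565993 (1046 bp, 4.96). The end itself lay in the gap of 549 bp between them. The strand of Pknox1 was not in the tables used here, so whether this end is its start was not analysed. The values are close to the median of the strongest signal value over genes with an end peak, which was 4.71 (interquartile range 3.52 to 6.55). The median of the widest peak of those genes was 1147 bp (714 to 1810 bp).

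Another peak over Pknox1 lay in the body, from 31593955 to 31595684. It was the widest of that gene, 1730 bp, but had a signal value of only 3.45 and lay 12.8 kb from the high end. With it and the inner end peak, Pknox1 had 2 peaks over its body, and 1223 of 6701 genes of like length (18.3%) had at least as many. The 4 flank peaks away from its ends had signal values of 3.98 to 11.2. The strongest, of 11.2 at 31657226 to 31658718, was 1 of 2 at an end of U2af1, a splicing factor gene. Only 3 of the 7 Pknox1 peaks had an end of Pknox1 as the nearest protein-coding gene end.

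Pknox2 (chromosome 9, 36890979 to 37147342, 256 kb) is the longest of the 8 and had no peak at an end or over its body. The 6 peaks in its flanks were all weak, with signal values from 2.29 to 3.15 and widths from 374 to 748 bp, and 3 had a q-value above 0.05. The nearest was 61.0 kb from the gene, at Tmem218, and 4 lay together over Slc37a2. None had an end of Pknox2 as the nearest gene end. The 2 Pknox genes thus differed in the same manner as Meis1 and Meis2, with peaks over 1 paralogue and none over the other.

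The Pbx genes had no end peak above a signal value of 4.04. Pbx2 (chromosome 17, 34592259 to 34597400, 5.14 kb) is the shortest of the 8 and lies in a gene-dense stretch with 12 other protein-coding genes within 100 kb, of which 5 had a peak at an end, against 36.2% of all protein-coding genes. Its end peak, at 34589792 to 34591906, was 2115 bp wide with a signal value of 4.04 (−log10 q 5.62). This peak ended 352 bp short of Pbx2, covered the start of the neighbouring Gpsm3 and had its summit 1.81 kb before the Pbx2 start. By the nearest gene end it belonged to Gpsm3, which encodes a regulator of G-protein signalling. No peak overlapped the body of Pbx2. Its 6 other flank peaks had signal values from 2.75 to 5.17.

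Pbx3 (chromosome 2, 34171457 to 34372045, 201 kb), known as a partner of Hoxa9 and Meis1 in leukaemia, had the reverse layout, with 3 peaks in the body and none at an end. The strongest, at 34302088 to 34303471, was 1384 bp wide with a signal value of 4.50 and lay 131 kb from the low end. The others had signal values of 2.63, at 3.48 kb from the low end, and 3.39, at 11.9 kb from the high end. For 3 peaks over the body, 610 of 2074 genes of like length (29.4%) had at least as many. All 3 had an end of Pbx3 as the nearest protein-coding gene end. The only flank peak, with a signal value of 3.09, lay at an end of Mapkap1. Once q-values above 0.05 were left out, 2 of the 3 body peaks remained, without that of 2.63. With −log10 q of at least 5 only the strongest of the 4 was left.

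Pbx4 (chromosome 8, 69832476 to 69872292, 39.8 kb), known mainly from the testis, had the weakest end peak of the family. It ran from 69831368 to 69832171 (804 bp) with a signal value of 2.64 (−log10 q 1.87), and its summit lay at -0.618 kb from the annotated start, that is, before it. Of the genes with an end peak, 5.26% had a lower strongest signal value. The peak was not in the list with −log10 q of at least 5. It lay between Pbx4 and Lpar2, 304 bp from Pbx4, and was counted at an end of both genes. No peak overlapped the body of Pbx4. The other 8 flank peaks had signal values from 2.22 to 6.85, and 2 had a q-value above 0.05. Of these, 4 lay at an end of another gene, the strongest at Atp13a1, and 4 lay inside Gatad2a.

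**Figure D3:**
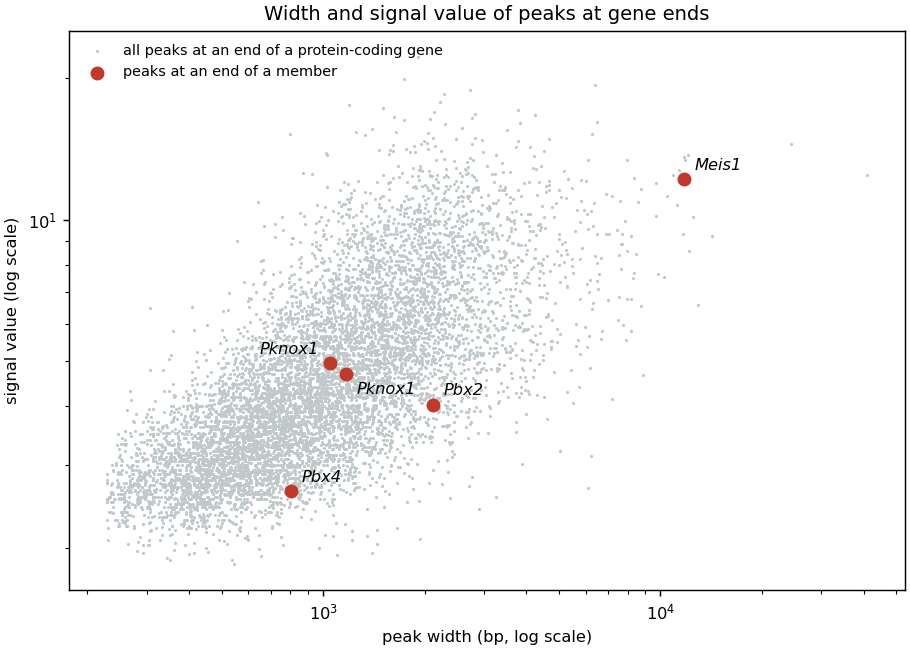
Width in bp (x axis, log scale) and signal value (y axis, log scale) of every peak at an end of a protein-coding gene, in grey, with the 5 end peaks of members in red. Meis1, at 11746 bp and 12.2, lies at the upper right edge, whereas the Pknox1, Pbx2 and Pbx4 peaks lie in the bulk with signal values of 2.64 to 4.96.

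Over all 46 peaks, the median signal value was 3.45 and the median width 762 bp, against 3.27 and 854 bp in the whole list. A q-value above 0.05 was attached to 9 of them (19.6%), against 21.2% of the list. The 13 peaks over bodies had a median signal value of 3.43 and the 33 flank peaks one of 3.98. Of the 30 flank peaks that were not at an end of a member, 17 lay at an end of another protein-coding gene. Only 3 of the 33 had an end of a member as the nearest gene end, 1 each at Meis1, Pbx4 and Pknox1. Of the other protein-coding genes that reached into the flanks, 6 of 10 around Pbx4, 3 of 6 around Pknox1, 3 of 4 around Pknox2 and 1 of 1 around Pbx3 and Meis2 had an end peak, beside the 36.2% of all genes and the counts given for Meis3 and Pbx2. Outside Meis1, most flank peaks thus had an end of another protein-coding gene as the nearest gene end. Which gene a flank peak acts on was not tested. The order of the members by all peaks over the body and within 100 kb (Meis1 and Pbx4 with 9, Pbx2 and Pknox1 with 7, Pknox2 with 6, Meis3 and Pbx3 with 4 and Meis2 with 0) differed from the order by peaks over the body (Meis1 with 8, Pbx3 with 3, Pknox1 with 2 and the others with 0).

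The protein-coding genes most like Meis1 were sought by the mean difference in percentile rank over 4 measures, the number of peaks at ends, the number over the body, the strongest signal value at an end and the widest peak at an end, in the 1 pooled list. The closest 5 were Foxo3, Inpp5d, Blnk, St3gal6 and Eya1. Foxo3, a forkhead factor, had 8 peaks over the body and an end peak of 5829 bp with a signal value of 12.2. Blnk, an adaptor of B-cell receptor signalling, had 9 and an end peak of 11747 bp with 13.6. Eya1 had 17 and an end peak of 11681 bp with 12.2. The mean difference in rank ran from 0.000982 for Foxo3 to 0.00223 for Eya1, on a scale from 0 to 1.

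Among 9 other TALE genes, Tgif1, Tgif2, Mkx and the 6 Irx genes, 2 had an end peak, against the background of 36.2%. Tgif1, a repressor of TGF-beta responses, had a strongest signal value of 10.9 and an end peak of 7566 bp, and Tgif2 had 4.62 and 1172 bp. No Irx gene and not Mkx had a peak at an end or over the body.

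Hox genes that bind with Pbx and Meis proteins had end peaks in 4 of 13 cases, against the background of 36.2%. All 4 were in the Hoxa cluster, Hoxa7 (7.65, 9801 bp), Hoxa9 (7.44, 3994 bp), Hoxa10 (7.44, 3943 bp) and Hoxa6 (3.95, 1806 bp). These genes lie side by side and share peaks, so they are not separate cases. Hoxa9, the main partner of Meis1 in leukaemia, thus had a lower strongest signal value than Meis1. The 7 Hoxb genes of the list had no peak at an end, over the body or within 100 kb.

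Of 14 genes linked to Meis or Pbx activity in blood, 8 had an end peak and 12 a peak over the body, against 36.2% and 41.3% of all protein-coding genes. These shares were not matched for length, and 60% of genes of like length to Meis1 had a peak over the body. With 14 genes chosen knowing earlier results of these data, these counts are not read as different from the background. The strongest end peaks were at Trib2 (9.67), a pseudokinase that acts with Meis1 in leukaemia, Sox4 (8.23) and Msi2 (6.86), an RNA-binding protein of stem cells. Flt3, a receptor of early progenitors and a reported target of Meis1, had an end peak of 6.58 and a peak of 13.3 over its body. Msi2 had 44 peaks over its body and Erg, a stem cell factor without an end peak, had 20, the strongest with a signal value of 16.4. Both genes are long (378925 and 227432 bp), and longer genes can hold more peaks. Neither Hlf nor Ccnd1 had a peak at an end or over the body. By peaks that overlap an end window, Meis1 had a higher strongest signal value than any gene of these 3 lists. This order does not hold once peaks over the body are counted, where Erg and Flt3 were higher, nor by the summit, where Meis1 has no end peak.

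**Figure D4:**
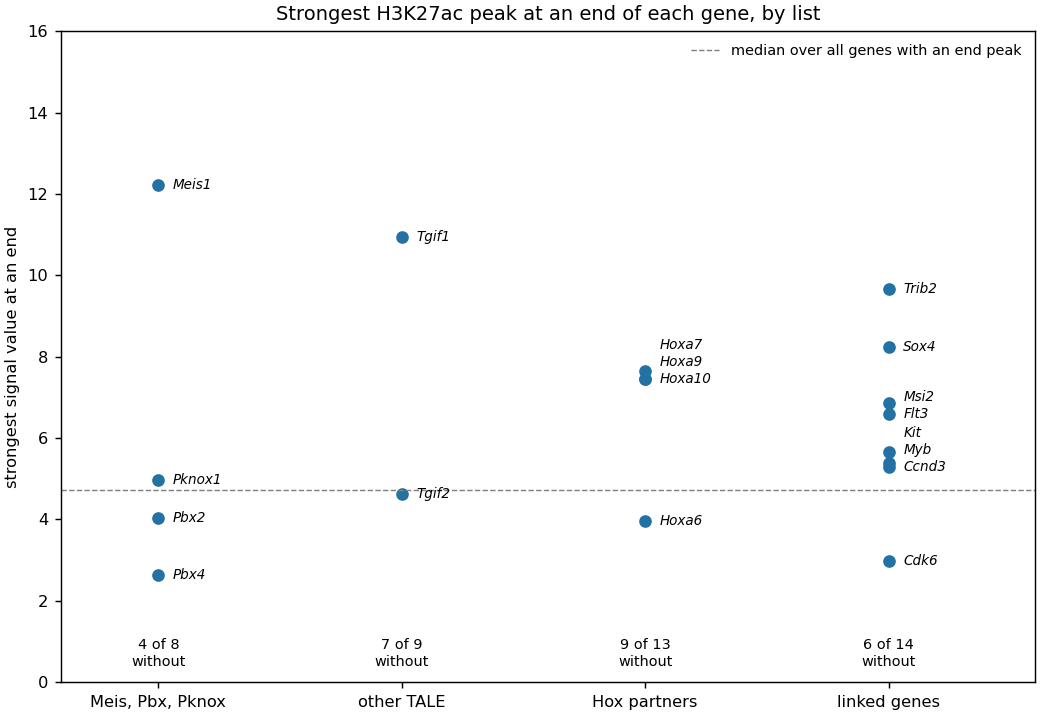
Strongest signal value at an end (y axis) for each gene with an end peak, by list (x axis), with the number of genes without an end peak written below and the median over all genes with an end peak, 4.71, as a dashed line. Meis1 (12.2) is the highest point, followed by Tgif1 (10.9) and Trib2 (9.67).

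The labelled cell type was set beside marker genes. An end peak was found at 4 of 6 stem and progenitor markers, Flt3, Kit, Slamf1 and Cd48, but not at Cd34 or at Ly6a, which encodes the Sca1 used in the sort. It was found at 4 of the 4 B-cell markers reported (Ebf1, Pax5, Cd79a and Cd79b), 1 of 4 T-cell markers (Cd3d), 0 of 5 myeloid, 0 of 4 erythroid and 0 of 5 markers of tissues other than blood. The share over all protein-coding genes was 36.2%. In lists of 4 to 6 genes, neither the high nor the low counts are read as different from it. At Ebf1 the end peak was 10925 bp wide with a signal value of 12.4, above that of Meis1, and 54 peaks lay over the body. At Pax5 it was 8456 bp wide with 8.45, and 31 peaks lay over the body. Ebf1 and Pax5 are long as well (389997 and 185947 bp), and genes of like length were not set beside them. The median of the strongest signal value at an end was 6.42 for the B-cell markers and 4.44 for the 4 stem and progenitor markers with an end peak. With 4 genes in each, these medians are not read as different. The labels give a sort on lineage-negative, Sca1+ and Kit+ cells. Whether B-lineage cells were among them or contributed to the Meis1 peak was not tested.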

How the data were processed

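Per the labels, H3K27ac ChIPmentation was run on 4 libraries, with 1 input library of the same genotype. BWA, MACS2 and the build mm10 are named in the submitters' processing notes, with no version or role. The authors deposited 1 peak list without a header, with a score, a signal value read as an enrichment ratio, and −log10 p-values and −log10 q-values per peak. The list is titled as an optimal overlap set of H3K27ac minus input. By what rule the overlap was formed and which filters were used is not given in the sources used here. The total depth is unknown, and these single-peak values are the authors' own.

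Peaks were placed on the RefSeq genes of GRCm38.p6 with Python 3.11.15, pandas 2.3.3 and scipy 1.17.1, counting any overlap. A peak was at an end within 1 kb of either end of the gene, in the body when it overlapped it, and in the flank otherwise within 100 kb. Coordinates are 1-based. Genes of like length were 0.5 to 2 times as long. The overlap step was tested on simulated peaks. The promoter table held 5 of the 8 genes; a planned comparison of homeodomains was not made because no protein sequence was used here. No test was run, since the list holds no replicate values.

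The members and lists were chosen with earlier results of these data known. A member of the marker lists is not reported here. Named were all members with their peaks, the strongest genes of each list and the 5 genes most like Meis1. Alternatives were stricter lists, merged peaks, wider or summit-based windows, a 50 kb flank and assignment to the nearest gene.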

Additional observations from a re-analysis of the deposited data

How the results depend on the processing

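Of 140 recomputed values, 97 stayed within 1.5 times the reported value, or within its Wilson interval for the share of all genes, and 43 did not. The 97 include counts of 0, which could not rise under alternatives that only remove, merge or restrict peaks, so these show no stability. The number of members with an end peak was 2 by the summit and otherwise 3 or 4. Peaks over bodies fell from 13 to 3 with −log10 q of at least 5 and to 3 with a signal value of at least 4, of which Meis1, Pbx3 and Pknox1 each kept 1. Flank peaks fell from 33 to 17 and 16 in these lists, to 18 within 50 kb and to 3 by the nearest gene. The share of genes with an end peak was 24% among peaks of −log10 q 5 or more, 34.4% once q-values above 0.05 were left out, 23.2% for signal values of 4 or more, 39.3% with 2.5 kb and 20.9% over all annotated genes. These moves follow from the construction of each alternative, with fewer peaks, other windows or other genes. The medians of the strongest signal value and of the widest peak of members were recomputed only with 2.5 kb at an end and with ends and body together, and neither moved past 1.5 times. Both alternatives only add peaks, so no member's strongest or widest value could fall, and the lack of a fall shows no stability. No library could be left out in turn, as the peak list used here pools all 4. No paired analysis was possible because numbered libraries have no columns of their own. The depth is unknown, so whether genes without a peak would gain one at greater depth was not measured.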

Other observations

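The neighbourhood of Meis1 beyond 100 kb was nearly empty. Without a limit on distance, 10 peaks had an end of Meis1 as the nearest protein-coding gene end, and 1 of them lay beyond 100 kb, 451 kb from the gene, with a signal value of 2.45. No such distant peak was nearest to any of the other 7 members. Gm16141 has a further annotated start inside Meis1, whose promoter window held 1 CpG and lay 18162 bp from the nearest peak. Unlike the members' windows, it held the Pbx core TGATTGA, on the reverse strand from position -51, as did 2.7% of all promoters. The Runx core TGTGGT was found there from position 2.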
